A study of Mus musculus with 4 samples.

Results

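Dnah2, Fndc5, Dpep1, Inmt, Hk3 and Wfdc17 are 6 mouse genes whose signal was lower in the gastric lymph node than in the pancreatico-duodenal lymph node and that belong to no usual list of cell type markers. They were picked because their log2 ratios between the nodes were large, negative and consistent on these same arrays. Their ratios and the spread of these over the mice are therefore given below as a description, without a test. No numeric threshold was part of the choice. The 6 genes were read by 8 of the 41174 probes, and each of the 6 was among the 21329 features (genes or unnamed transcripts, 13408 of them with a gene symbol) that passed the filter on dim probes. Of the 8 probes 7 passed that filter, which asked, in the GLN or in the PDLN channel, for 3 of 4 arrays with a signal well above background.

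The arrays compared the gastric lymph node (GLN), the left pancreatic node, with the pancreatico-duodenal lymph node (PDLN), the right pancreatic node, of 4 female NOD mice aged 12 weeks. The NOD mouse is an inbred strain that develops autoimmune diabetes spontaneously, and both nodes drain the pancreas. No animal was treated or genetically altered, and both nodes came from the same 4 animals. Each mouse had 1 two-colour Agilent array, with its GLN RNA labelled with Cy5 and its PDLN RNA with Cy3. The dyes were not swapped, so a difference between the nodes and a difference between the dyes cannot be told apart for any probe.

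The members have little in common in their known functions. Hk3 encodes hexokinase 3, which phosphorylates glucose in the first step of glycolysis and is best known from cells of the myeloid lineage. Dpep1 encodes a membrane-anchored dipeptidase that splits cysteinylglycine, a breakdown product of glutathione, and converts leukotriene D4 to leukotriene E4. Inmt encodes indolethylamine N-methyltransferase, which moves a methyl group from S-adenosylmethionine to tryptamine and related amines. Dnah2 encodes a dynein heavy chain, a motor of the axoneme of motile cilia and flagella. Fndc5 encodes a membrane protein with a fibronectin type III domain whose outer part is released as irisin, best known from skeletal muscle. Wfdc17 encodes a small secreted protein with a whey acidic protein (WAP) domain, described in activated macrophages and microglia of the mouse.

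Whole lymph nodes were homogenized, so fewer cells of a type and less RNA per cell cannot be told apart. All 9 B cell markers were measured in the nodes, and so were 8 of 10 T cell markers. Between 67.6% and 71.8% of probes were well above background in the GLN channel, against 60.2% to 63.1% in the PDLN channel. The median raw intensity was 115 to 155 in the GLN channel and 87.3 to 95.9 in the PDLN channel. The raw intensities of the channels are therefore not on a common scale, and the ratios below were taken after background correction and loess normalization within each array. No spot other than controls was saturated. The PDLN of mouse 3 stood apart by exocrine pancreas transcripts: the 15 markers summed to 13460 to 75010 intensity units in the GLN and to 8092 to 2283000 in the PDLN, with the highest PDLN sum in mouse 3. Member values are therefore also given without mouse 3.

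The sequences around the start sites of the members differ in base content and in short motifs. Windows from 250 bases before to 50 bases after the annotated start were taken from RefSeq for mouse build GRCm38.p6, and all 6 genes matched. Fndc5 and Inmt are shown as the ends of the range in CpG content, and Wfdc17 is shown with Wfdc18, its neighbour on the chromosome and a gene of the same WAP family. The Fndc5 window (chr4:129136749-129137048, plus strand) has a GC content of 82.3% and 48 CpG dinucleotides, and the Inmt window (chr6:55174941-55175240, minus strand) has 0 CpG dinucleotides, against a median of 7 over all 32851 windows. The Inmt window holds a run of 46 bases that is repeated directly after itself. The Wfdc17 window (chr11:83703806-83704105, plus strand) and the Wfdc18 window (chr11:83708754-83709053, plus strand) have 1 and 2 CpG dinucleotides, and their longest shared run is 10 bases. Capitals mark exact matches, on either strand, to TATAAA (the core letters of the TATA box), GAGGAA (a core bound by the myeloid factor PU.1, seen as TTCCTC where it lies on the other strand), GTTGCC (part of the X box of ciliary genes) and CCAAT (the CCAAT box); no match overlaps another.
Fndc5: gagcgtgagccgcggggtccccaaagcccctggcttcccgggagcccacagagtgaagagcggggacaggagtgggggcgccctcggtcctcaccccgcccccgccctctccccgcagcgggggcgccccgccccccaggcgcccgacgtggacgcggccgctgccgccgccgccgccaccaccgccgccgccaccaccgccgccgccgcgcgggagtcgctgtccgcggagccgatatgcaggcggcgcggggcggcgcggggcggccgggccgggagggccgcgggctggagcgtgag
Inmt: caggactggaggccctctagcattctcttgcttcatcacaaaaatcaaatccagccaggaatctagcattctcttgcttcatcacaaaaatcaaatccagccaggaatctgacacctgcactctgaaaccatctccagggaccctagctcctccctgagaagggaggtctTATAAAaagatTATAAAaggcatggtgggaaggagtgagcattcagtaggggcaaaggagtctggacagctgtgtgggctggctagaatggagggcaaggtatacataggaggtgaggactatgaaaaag
Wfdc17: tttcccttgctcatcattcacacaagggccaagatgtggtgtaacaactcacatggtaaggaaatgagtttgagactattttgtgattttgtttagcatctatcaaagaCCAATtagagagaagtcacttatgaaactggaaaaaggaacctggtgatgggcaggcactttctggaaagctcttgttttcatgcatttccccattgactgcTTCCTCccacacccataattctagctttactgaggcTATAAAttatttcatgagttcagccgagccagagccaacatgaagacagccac
Wfdc18: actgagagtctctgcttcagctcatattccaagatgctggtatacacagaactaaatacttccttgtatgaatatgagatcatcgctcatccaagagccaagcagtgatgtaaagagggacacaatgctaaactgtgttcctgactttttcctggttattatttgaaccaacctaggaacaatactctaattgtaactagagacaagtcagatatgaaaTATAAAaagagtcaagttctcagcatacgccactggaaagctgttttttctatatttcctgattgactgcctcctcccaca
TATAAA lies in the windows of Inmt, at -80 and -69 from the start, and Wfdc17, at -3, which makes 2 of 6 members, and in 13.6% of all windows. In Wfdc18 it lies at -31. GAGGAA lies in 3 of 6 members, Dpep1, Wfdc17 and Hk3, and in 28.3% of all windows. GTTGCC lies in Hk3 alone among the members, and in 12.5% of all windows, while Dnah2, the axonemal gene, has no match to these letters in its window. CCAAT lies in Dnah2 and Wfdc17 and in 37.4% of all windows. These matches describe the letters of the windows and were not related to the measurements.

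Hk3 read 1300.2, 908, 522 and 821 raw intensity units in the GLN of mice 1 to 4, against 1042, 1586, 900.1 and 974 in the PDLN. On the normalized log2 scale its levels were 9.72, 9.21, 8.85 and 9.18 in the GLN and 10.51, 10.97, 10.40 and 10.55 in the PDLN. All 4 GLN levels lay below all 4 PDLN levels, although in mouse 1 the raw GLN intensity was the higher. The log2 ratio of GLN over PDLN was -0.79, -1.76, -1.55 and -1.37, a mean of -1.37 ± 0.42 (SD, n = 4), or 2.58-fold lower in the GLN. Mouse 1 had the smallest difference, through the highest GLN level of the 4.

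Dpep1 was the dimmest of the 6 genes, at 262, 191, 106 and 240.4 raw units in the GLN and 266, 258, 195 and 279 in the PDLN. Its normalized log2 levels were 7.52, 7.16, 6.74 and 7.51 in the GLN and 8.53, 8.32, 8.10 and 8.65 in the PDLN. The nodes did not overlap, and the order of the mice was similar in both, with mouse 3 lowest in each. The log2 ratios were -1.02, -1.16, -1.36 and -1.14, a mean of -1.17 ± 0.14 (SD, n = 4), or 2.25-fold lower in the GLN.

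Inmt was the brightest member, at 7460.1, 4166, 1695 and 4130.4 raw units in the GLN and 6395, 5167, 5224 and 5764 in the PDLN. Its normalized log2 levels were 12.22, 11.37, 10.42 and 11.48 in the GLN, against 13.13, 12.74, 12.96 and 13.20 in the PDLN. The spread sat in the GLN, with an SD of 0.74, while the PDLN levels had an SD of 0.20. The log2 ratios were -0.91, -1.38, -2.54 and -1.72, a mean of -1.64 ± 0.69 (SD, n = 4), or 3.11-fold lower in the GLN. The ratio was lowest in mouse 3, and without it the mean was -1.34 ± 0.41. The nodes did not overlap, and only 0.53 separated the highest GLN level, that of mouse 1, from the lowest PDLN level, that of mouse 2.

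Dnah2 had the lowest mean ratio of the 6. Its first probe read 199, 176, 159.6 and 224 raw units in the GLN and 461, 501, 490.1 and 311 in the PDLN. The normalized log2 levels were 7.15, 7.03, 7.28 and 7.42 in the GLN and 9.31, 9.26, 9.48 and 8.80 in the PDLN. The gap of 1.38 between the highest GLN and the lowest PDLN level was the widest among the members. The log2 ratios were -2.16, -2.24, -2.20 and -1.38, a mean of -1.99 ± 0.41 (SD, n = 4), so that the GLN stood at 25.1% of the PDLN level. Mouse 4 differed less than the other mice, with both the highest GLN level and the lowest PDLN level. The further Dnah2 probe was well above background on 1 of 4 arrays in the GLN channel and on 0 of 4 in the PDLN channel, and it gives no fold change. Its raw intensities were 65.9, 69.3, 67.0 and 79.3 in the GLN and 52.8, 52.1, 54.5 and 58.3 in the PDLN. The Dnah2 difference therefore rests on 1 probe.

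Fndc5 had the most even ratio among the members. Its first probe read 783, 832, 642 and 601 raw units in the GLN and 838, 968, 813 and 602 in the PDLN. The normalized log2 levels were 9.02, 9.11, 9.14 and 8.75 in the GLN and 10.19, 10.26, 10.26 and 9.83 in the PDLN. Both nodes of mouse 4 were lower than those of the other mice, by a similar amount. The log2 ratios were -1.17, -1.14, -1.12 and -1.08, a mean of -1.13 ± 0.04 (SD, n = 4), or 2.19-fold lower in the GLN. The further Fndc5 probe also passed the filter, with log2 ratios of -0.97, -1.09, -0.84 and -0.74 and a mean of -0.91 ± 0.15. The nodes did not overlap on either probe, and the first probe had the lower ratio in 4 of 4 mice, with differences of -0.34 to -0.05.

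Wfdc17 read 1483, 1625, 880.2 and 1387 raw units in the GLN and 2511, 1711, 1405 and 1301 in the PDLN. Its normalized log2 levels were 9.90, 10.04, 9.57 and 9.92 in the GLN and 11.76, 11.10, 11.06 and 10.99 in the PDLN. The nodes did not overlap, and the PDLN of mouse 1 stood above the other PDLN samples. The log2 ratios were -1.86, -1.06, -1.49 and -1.07, a mean of -1.37 ± 0.39 (SD, n = 4), or 2.58-fold lower in the GLN. Whether the Wfdc17 probe also binds transcripts of other WAP genes was not tested.

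**Figure D1:**
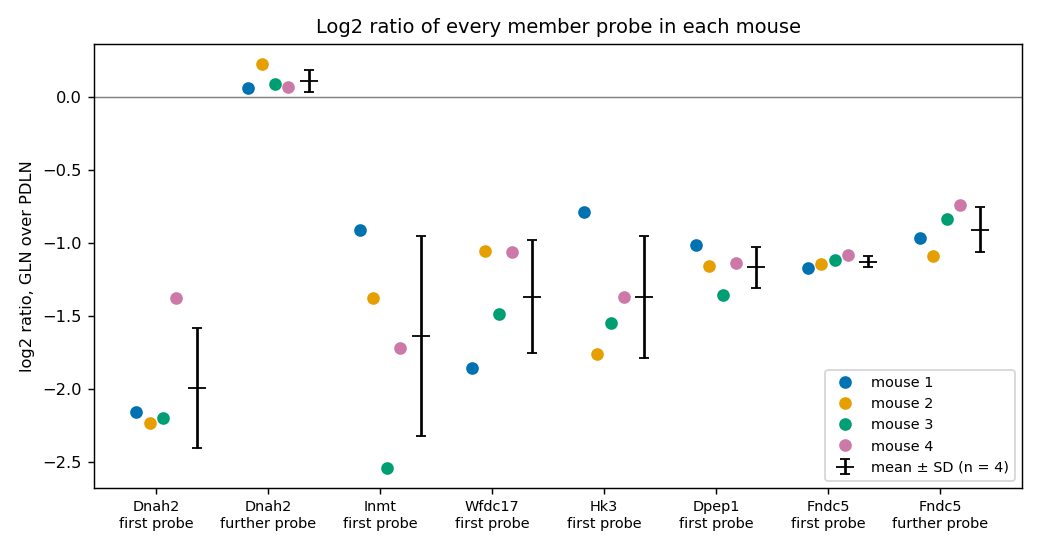
Log2 ratio of GLN over PDLN (y axis) for every probe of the 6 genes (x axis), with a coloured point for each of the 4 mice and the mean ± SD beside them. The 7 probes that passed the filter lie below 0 in every mouse, with Inmt spread from -2.54 to -0.91 and the first Fndc5 probe from -1.17 to -1.08, while the dim further Dnah2 probe lies above 0.

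**Figure D2:**
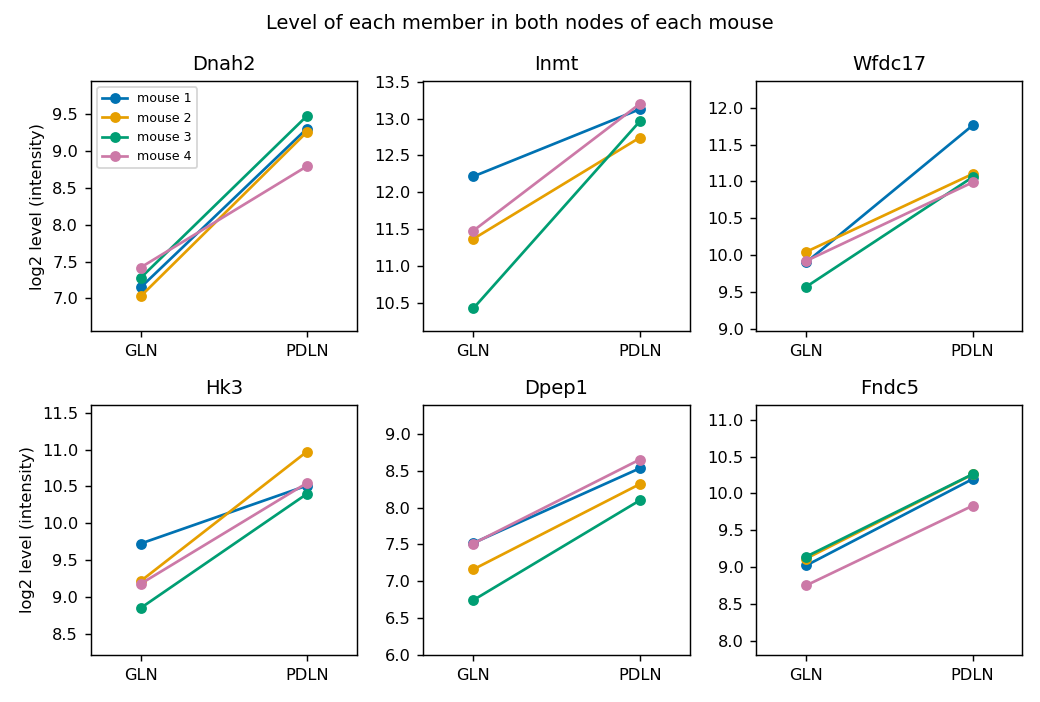
Normalized log2 intensity (y axis) of the first probe of each gene in the GLN and the PDLN (x axis), with a line for each of the 4 mice. Every line is higher at its PDLN end, and the Inmt lines start between 10.42 and 12.22 in the GLN and end between 12.74 and 13.20 in the PDLN.

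The raw intensities of the probes used were lower in the GLN in 21 of 24 pairs of nodes, and the normalized ratios were below 0 in all 24. The exceptions were mouse 1 for Inmt, mouse 1 for Hk3 and mouse 4 for Wfdc17. A ratio below 0 in each of the 4 mice was found for 3619 of 21329 features, or 17%. For all 6 genes every GLN level lay below every PDLN level, which was so for 1567 of 21329 features, or 7.35%. A mean log2 ratio of -1 or lower was found for 47 features, or 0.22%, and the 6 genes are among them. Since the genes were picked on this contrast, nothing is read from these shares. Counted from the lowest ratio of all features, Dnah2 ranked 3, Inmt 5, Wfdc17 15, Hk3 16, Dpep1 31 and Fndc5 36. The means of Wfdc17 and Hk3, neighbours in this order, differed by less than the SD of either over mice, and those of Dpep1 and Fndc5 by less than the SD of Dpep1 and by about that of Fndc5.

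Few features of like brightness had ratios as low, but the genes were picked for low ratios, so nothing is read from the counts below. Among the 3160 features within 0.5 of the mean log2 intensity of Dnah2, itself included, 0 others had a ratio as low, and the median was 0.04. For Inmt 1 of 1239 features of like brightness was as low, for Hk3 3 of 2617, for Wfdc17 3 of 2314, for Fndc5 4 of 2739 and for Dpep1 9 of 3396. Each window holds the member itself, and the rounding of its mean decides whether it is counted. These counts may thus include the member and are not compared between genes. The median ratio of all features was 0.03.

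**Figure D3:**
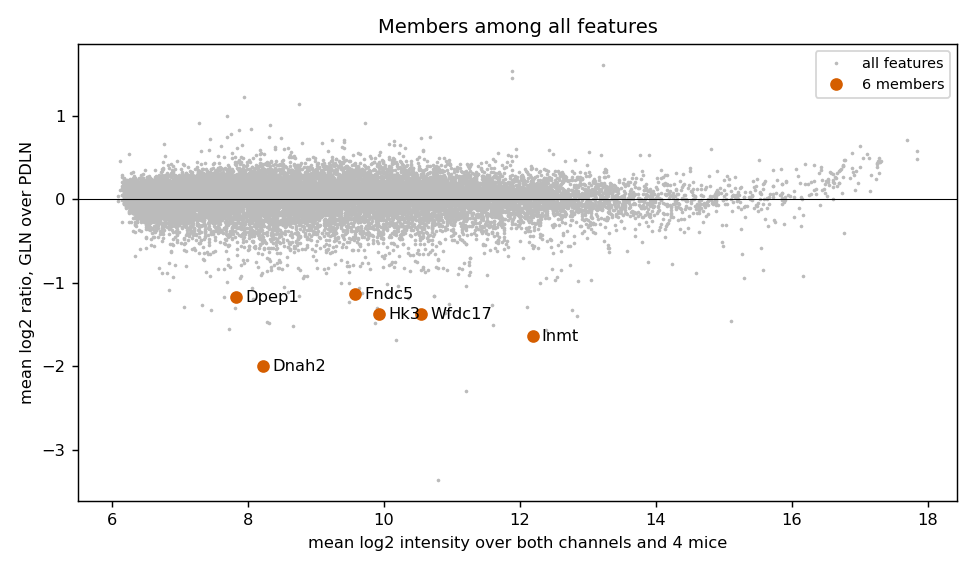
Mean log2 ratio of GLN over PDLN (y axis) against mean log2 intensity over both channels and 4 mice (x axis) for 21329 features, in grey, with the 6 genes in orange. The genes span intensities from 7.82 for Dpep1 to 12.18 for Inmt and lie between -1.99 and -1.13, under the bulk of the features.

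The members differed from each other in how their ratios varied over the mice. The SD of the ratio over mice lay at percentile 99 of all features for Inmt, 95.4 for Hk3, 95.25 for Dnah2, 94.4 for Wfdc17, 62.2 for Dpep1 and 5.035 for Fndc5, where the median SD was 0.12. Consistent decreases were part of the choice of the genes, so nothing is read from these percentiles. The median ratio of the 6 genes was -1.10 in mouse 1, -1.27 in mouse 2, -1.52 in mouse 3 and -1.26 in mouse 4. No mouse was the extreme for all genes. Mouse 1 had the smallest difference for Hk3, Inmt and Dpep1 and the largest for Wfdc17 and the first Fndc5 probe. Mouse 4 had the smallest for Dnah2 and Fndc5. The first Fndc5 probe had a range of only 0.09 over the mice, and the further Fndc5 probe had its largest difference in mouse 2. Likeness between the genes was measured as the Euclidean distance between their 4 log2 ratios, where 0 means equal ratios in every mouse. Dpep1 and Fndc5 were the closest pair, at 0.29, and Dnah2 and Fndc5 the farthest, at 1.85.

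By the same distance, the 3 nearest of 13199 features with an established gene name were found for each member. This measure takes in the size of the ratio in each mouse, so it returns other genes that were low on the same arrays. It also favours genes with a like order of the mice. A mouse pattern shared with a member is therefore part of how these genes were found. The nearest to Hk3 was Itga2b, the integrin alpha IIb chain known from platelets, at 0.26 with a mean ratio of -1.30 ± 0.36 (SD, n = 4). It was followed by Cd163, a haemoglobin scavenger receptor of macrophages, at 0.41 with -1.26 ± 0.30, and Adgre1, the macrophage antigen F4/80, at 0.58 with -1.36 ± 0.71. Like Hk3, these genes had their smallest difference in mouse 1, at -0.84, -0.82 and -0.36.
The nearest to Inmt were Efemp1, an extracellular matrix protein of the fibulin family, at 0.88, the iron exporter gene Slc40a1 at 0.94 and Adgre1 at 0.98. Slc40a1 shared with Inmt its lowest ratio in mouse 3, at -2.78. The nearest to Dpep1 were Aebp1, an extracellular protein of connective tissue, at 0.23, Wfdc1, another WAP gene, at 0.28, and Fndc5 at 0.29. After Dpep1, the nearest to Fndc5 were Slit2, a secreted guidance protein, at 0.32, and the chemokine gene Cxcl14 at 0.36. Cxcl14 at 0.78, Fndc5 at 0.79 and Slit2 at 0.81 were also the nearest to Wfdc17. The feature nearest to Dnah2 was Aldh1a2, a retinaldehyde dehydrogenase that makes retinoic acid, at 0.79 with a mean ratio of -1.69 ± 0.34, then Wfdc17 at 1.44 and Efemp1 at 1.48.

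The relatives of the 6 genes, the genes of the same family or pathway with the members left out, mostly did not pass the test. Of 97 measured relatives in 7 lists, 11 were lower and 1 was higher in the GLN by limma at a Benjamini-Hochberg adjusted p under 0.05 over all features. That is 11.3% lower and 1.03% higher, beside 4.45% (950) lower and 3.09% (660) higher of all 21329 features. The median ratio of the relatives was -0.10, beside 0.03 for all features. Counts at an unadjusted p under 0.05, given below for some lists, stand beside many such features. Without background correction these were 6667 of 21329, in either direction. Nothing is read from the unadjusted counts. Each of these calls was lost when mouse 2, mouse 3 or mouse 4 was left out, when 0, 3 and 1 of all features were called lower and 0 higher. The p-values measure the spread between 4 mice, whose number limits the precision.

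Hk1 and Hk2, paralogs of Hk3, did not pass the test. Of 23 measured hexokinase and glycolysis genes 3 were lower and 1 was higher, with a median ratio of -0.16. Hk1 had a ratio of -0.18 ± 0.29 (limma adjusted p = 0.316) and Hk2, the inducible hexokinase of muscle and fat, 0.07 ± 0.10 (adjusted p = 0.439), and neither passed. The further Hk1 probes that passed the filter read -0.35, -0.18 and 0.01. Hkdc1, another paralog, was not well above background on any array. Lower in the GLN were Aldoc, an aldolase, at -0.53 ± 0.19 (adjusted p = 0.0309), Pfkfb3, which makes an activator of phosphofructokinase, at -0.47 ± 0.17 (adjusted p = 0.0315), and Pkm, a pyruvate kinase gene, at -0.35 ± 0.17 (adjusted p = 0.0492). The further Pfkfb3 probes read -0.24 and -0.15. Slc2a1, the glucose transporter GLUT1, was higher, at 0.42 ± 0.17 (adjusted p = 0.0381). Under centring by the median in place of loess, where the median of all features was 0.32, Pfkfb3, Pkm and Hk1 turned to 0.14, 0.19 and 0.18, and Aldoc, at -0.19, no longer passed. Pkm and Slc2a1 also did not pass with the processed signals (limma adjusted p = 0.0882 and 0.0642), Slc2a1 without the pairing by mouse (adjusted p = 0.0699), and Pfkfb3 with the mean of its probes (adjusted p = 0.0542).

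Of the 20 measured genes of dipeptidases and of leukotriene and glutathione metabolism, 4 were lower and 0 higher, with a median of -0.21. Dpep2, the dipeptidase paralog that also handles leukotriene D4, read -0.27 ± 0.12 (limma adjusted p = 0.0527) and did not pass, although it did as lower in 9 of 14 alternatives, at -0.95 with the processed signals. Dpep3 was not well above background on any array. Lower were Ltc4s, the leukotriene C4 synthase, at -0.58 ± 0.29 (adjusted p = 0.0444), Anpep, the aminopeptidase N that also cleaves cysteinylglycine, at -0.45 ± 0.20 (adjusted p = 0.0396), and Alox5ap, the activator of 5-lipoxygenase, at -0.41 ± 0.20 (adjusted p = 0.0455). The remaining gene was the leucine aminopeptidase Lap3, at -0.22 ± 0.04 (adjusted p = 0.0442). Each of the 4 differences was smaller than the mean difference of Dpep1. Under median centring Anpep, Alox5ap and Lap3 turned to 0.07, 0.15 and 0.34, and Ltc4s, at -0.15, did not pass. With the processed signals Anpep, Alox5ap and Lap3 did not pass (limma adjusted p = 0.0569, 0.0608 and 0.0969). Without the pairing by mouse Ltc4s, Alox5ap and Lap3 did not (adjusted p = 0.0653, 0.0608 and 0.114), nor Lap3 with the mean of its probes (adjusted p = 0.101).

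Of 18 measured genes of small-molecule methyl transfer and amine metabolism, the relatives of Inmt, 0 were lower and 0 higher by limma, with a median of -0.12. At an unadjusted p under 0.05, 2 were lower and 0 higher. The brightest was Mat2a, which makes S-adenosylmethionine, at -0.05 ± 0.15 (limma adjusted p = 0.62), and it turned to 0.66 under median centring.

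No dynein relative of Dnah2 passed the test, in which the brightest probe stood for each gene. Of 14 other axonemal heavy chains 4 had a probe, and Dnah8 alone passed the filter, with a ratio of 0.20 ± 0.19 (limma adjusted p = 0.157). Dnah5, Dnah9 and Dnah11 had probes that did not pass the filter. Of 14 measured other dynein chains and assembly factors 0 were lower and 0 higher by limma, with a median of 0.08, and at an unadjusted p under 0.05, 1 was lower and 3 were higher. The brightest were Dynll1, a light chain shared by many complexes, at 0.17 ± 0.04 (adjusted p = 0.0691), and Dynlt1b, a light chain of cytoplasmic dynein, at -0.09 ± 0.07 (adjusted p = 0.247), which turned to 0.54 under median centring. Dnah8 and Dynll1 passed as higher under median centring, at 0.71 and 0.82. The gene lower at an unadjusted p under 0.05 was Dynll2, a light chain, at -0.21 ± 0.06 (limma adjusted p = 0.0519). Its further probes read -0.46 ± 0.10 and -0.13 ± 0.10 and were not tested by themselves.

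Of 13 measured Fndc genes and genes of the irisin axis 3 were lower and 0 higher, with a median of -0.15. Itgb5, a chain of the integrin reported as an irisin receptor, was at -0.42 ± 0.19 (limma adjusted p = 0.0416) and Fndc7 at -0.41 ± 0.14 (adjusted p = 0.0328). Fndc4, the closest paralog of Fndc5, was at -0.28 ± 0.12 (adjusted p = 0.0478), and its further probes read -0.21 and -0.18. Itgb5 and Fndc7 turned to 0.12 and 0.03 under median centring, and Itgb5 did not pass with the processed signals (limma adjusted p = 0.0612) or without the pairing by mouse (adjusted p = 0.152). Bdnf and Ucp1 were not well above background on any array.

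Of 8 measured WAP genes 1 was lower and 0 higher, with a median of -0.02. Wfdc1, known as a growth inhibitor of the prostate stroma, was lower, at -1.05 ± 0.23 (limma adjusted p = 0.0198), or 2.07-fold. Wfdc18 read -0.23 ± 0.22 (adjusted p = 0.15), and Slpi, the secretory leukocyte peptidase inhibitor, -0.21 ± 0.82 (adjusted p = 0.659), and neither passed. The further Wfdc18 probe read -0.38 ± 0.23. Under median centring Wfdc18 passed as lower, at -0.37, and Slpi turned to 0.44.

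**Figure D4:**
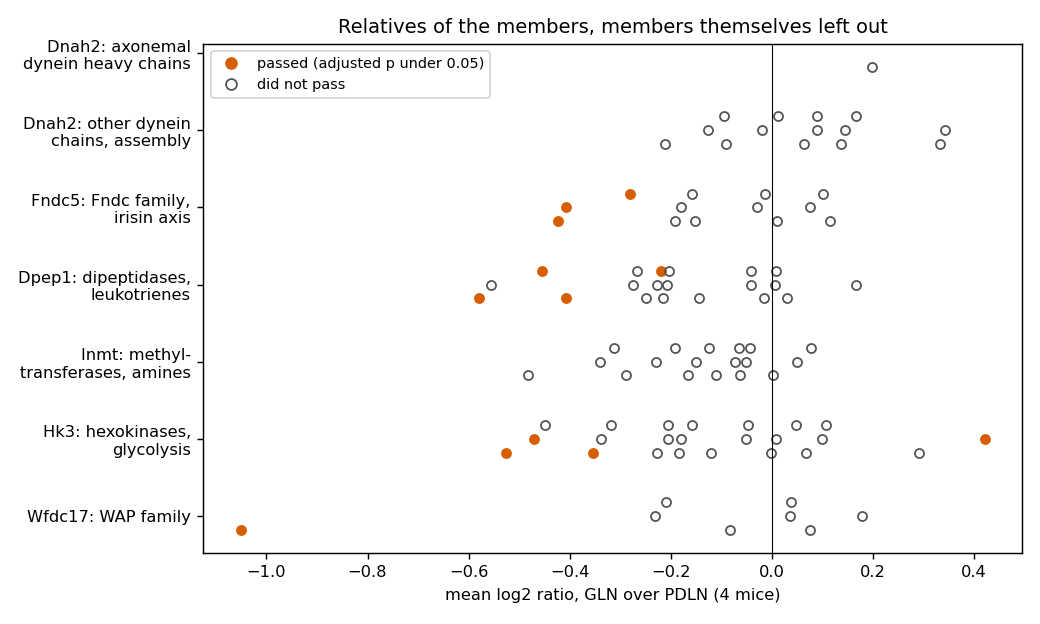
Mean log2 ratio of GLN over PDLN over 4 mice (x axis) for each measured relative of the 6 genes, in 7 lists (rows), filled where the adjusted p was under 0.05 and open otherwise. The relatives lie between -1.05 (Wfdc1) and 0.42 (Slc2a1), and 12 of 97 points are filled, 11 of them left of 0.

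The genes beside each member on its chromosome, 2 measured genes on each side, were looked at after the values had been seen. Of these 24 genes 1 was lower and 0 were higher, beside 4.45% lower and 3.09% higher of all features. The ratios of the 24 lay between -0.65 and 0.23 with a median of -0.09. The gene that passed was Sult5a1, a sulfotransferase gene next to Dpep1, at -0.65 ± 0.21 (limma adjusted p = 0.0271), a call lost without mouse 2, 3 or 4. Next to Wfdc17 lie Wfdc18 on one side and the chemokine genes Ccl4 and Ccl3 on the other, which read 0.08 ± 0.37 (adjusted p = 0.736) and -0.19 ± 0.29 (adjusted p = 0.304).

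Markers of the cell types in which the members are best known were measured on the same arrays. The marker counts here and in the next paragraphs stand beside 4.45% lower and 3.09% higher of all features at an adjusted p under 0.05. Those at an unadjusted p under 0.05 stand beside 6667 of 21329 features in either direction, counted without background correction. Of 12 measured macrophage markers 6 were lower and 0 higher, with a median of -0.76 and medians of -0.22, -0.78, -1.14 and -0.71 in mice 1 to 4. Timd4 went the other way, at 0.40 ± 0.37 (limma adjusted p = 0.124). At an unadjusted p under 0.05, 9 of these markers were lower and 1 was higher. The summed level of the macrophage markers was 46390 to 75300 in the GLN and 83950 to 119300 in the PDLN, so that the nodes did not overlap. Marco made up 64.6% of that sum, and without it the sums were 16370 to 26190 in the GLN and 31800 to 38420 in the PDLN. Vsig4 was not well above background on any array. The largest were Adgre1 at -1.36 ± 0.71 (limma adjusted p = 0.0433) and Cd163 at -1.26 ± 0.30 (adjusted p = 0.0198). Both calls were lost without mouse 2, 3 or 4, and that of Adgre1 also with the processed signals (adjusted p = 0.0527). The macrophage difference was smallest in mouse 1, as were those of Hk3, Inmt and Dpep1, whereas Wfdc17 had its largest difference in mouse 1. So did the first Fndc5 probe, within a range of only 0.09 over the mice, while the further Fndc5 probe had its largest in mouse 2. The part of the macrophage difference in the ratios of the members was not tested.

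Of 10 measured monocyte markers 1 was lower, Treml4 at -0.81 ± 0.25 (limma adjusted p = 0.0251), and the summed level was 34780 to 44990 in the GLN and 36250 to 43750 in the PDLN. Of 7 measured neutrophil markers 0 were lower and 1 was higher, the chemokine receptor gene Cxcr2 at 0.54 ± 0.21 (adjusted p = 0.033). The median of the list was nevertheless -0.43. At an unadjusted p under 0.05, 3 were lower and 1 was higher. S100a9 was at -1.48 ± 1.94 (limma adjusted p = 0.217) and did not pass. Elane, Lcn2 and Mmp8 were not well above background on any array, and the neutrophil sum was 1186 to 2283 in the GLN and 1355 to 11870 in the PDLN. S100a9 made up 64.6% of it. Without the pairing by mouse Cxcr2 did not pass (adjusted p = 0.0854).
Of 10 measured dendritic cell markers 4 were lower, led by Fscn1 at -0.65 ± 0.30 (adjusted p = 0.0395) and Flt3 at -0.64 ± 0.20 (adjusted p = 0.0258). The dendritic cell sum was 14040 to 16940 in the GLN and 17440 to 21020 in the PDLN, without overlap. Of 12 stromal markers 4 were lower, led by Col3a1 at -0.84 ± 0.34 (adjusted p = 0.0319) and Bgn at -0.72 ± 0.14 (adjusted p = 0.0198), with sums of 109200 to 154000 in the GLN and 121500 to 146000 in the PDLN. Ccl19 made up 61.3% of the stromal sum, at a ratio of 0.41, and without it the sums were 27730 to 54130 in the GLN and 54720 to 71980 in the PDLN. Under median centring Col3a1 and Fscn1, at -0.22 and -0.12, did not pass, nor did Fscn1 with the processed signals (adjusted p = 0.0615). Of 8 lymphatic endothelial markers 4 were lower, led by Stab1 and Reln, with sums of 36830 to 53450 in the GLN and 45040 to 54380 in the PDLN. Ccl21a made up 87.8% of that sum, at a ratio of -0.004, and without it the sums were 3464 to 5930 in the GLN and 6806 to 8717 in the PDLN, without overlap. Of 6 measured smooth muscle markers 2 were lower, Des and Smtn. Of 8 measured T cell markers 0 were lower and 2 were higher, Cd28 at 0.33 ± 0.15 (adjusted p = 0.0466) and Cd3g at 0.32 ± 0.14 (adjusted p = 0.0455), neither of which passed with the processed signals or without the pairing by mouse. Of 10 blood endothelial markers 3 were lower, with sums of 10240 to 15320 in the GLN and 16170 to 16950 in the PDLN. The part of these markers in the ratios of the members was not tested, and without mouse 2, 3 or 4 the genes named here were no longer called.

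Defining markers of the cell types for which Dnah2 and Fndc5 are best known were in part below detection. Of 15 markers of motile ciliated cells 5 were measured, with sums of 736 to 879 in the GLN and 787 to 934 in the PDLN. Of these 1 was lower, Drc1 at -0.43 ± 0.22 (limma adjusted p = 0.0499), and Foxj1, the master regulator of motile cilia, was not well above background on any array, like Ccdc39, Spag6l and Tekt1. Of 7 measured skeletal muscle markers 0 were lower and 0 higher by limma, and 1 and 1 at an unadjusted p under 0.05, with sums of 2117 to 2401 in the GLN and 2316 to 2960 in the PDLN, and Myh2 and Myh4 were not well above background. Of 5 measured markers of kidney and gut brush border, where Dpep1 is abundant, 0 were lower and 1 was higher, Cubn at 0.51 ± 0.24 (adjusted p = 0.0422), and their sums were 783 to 966 in the GLN and 708 to 744.5 in the PDLN. The calls of Drc1 and Cubn were lost without mouse 2, 3 or 4, and that of Drc1 in 9 of 14 alternatives in all.
Markers of exocrine pancreas and of fat, 2 tissues around the nodes, differed strongly between mice without passing the test. The exocrine pancreas list had medians of -0.37, 0.21, -4.78 and 0.81 in mice 1 to 4, and the adipocyte list 1.65, -1.76, 0.32 and -1.58, with 0 of 15 and 0 of 8 genes called by limma, and 0 of either list at an unadjusted p under 0.05. Inmt and Dpep1 had their lowest ratio in mouse 3, where the exocrine list was lowest. Dnah2 and Hk3 had theirs in mouse 2 and Wfdc17 in mouse 1. For Fndc5 it was mouse 1 by the first probe, within a range of only 0.09, and mouse 2 by the further probe. In mouse 3 the exocrine excess was in the PDLN. The Inmt levels of that mouse were 10.42 in the GLN, the lowest of the mice, and 12.96 in the PDLN, within the range of the others. The part of pancreas or fat tissue in the ratios of the members was not tested. Without mouse 3 the mean ratios were -1.92 for Dnah2, -1.34 for Inmt, -1.33 for Wfdc17, -1.31 for Hk3, -1.10 for Dpep1 and -1.13 for Fndc5.

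**Figure D5:**
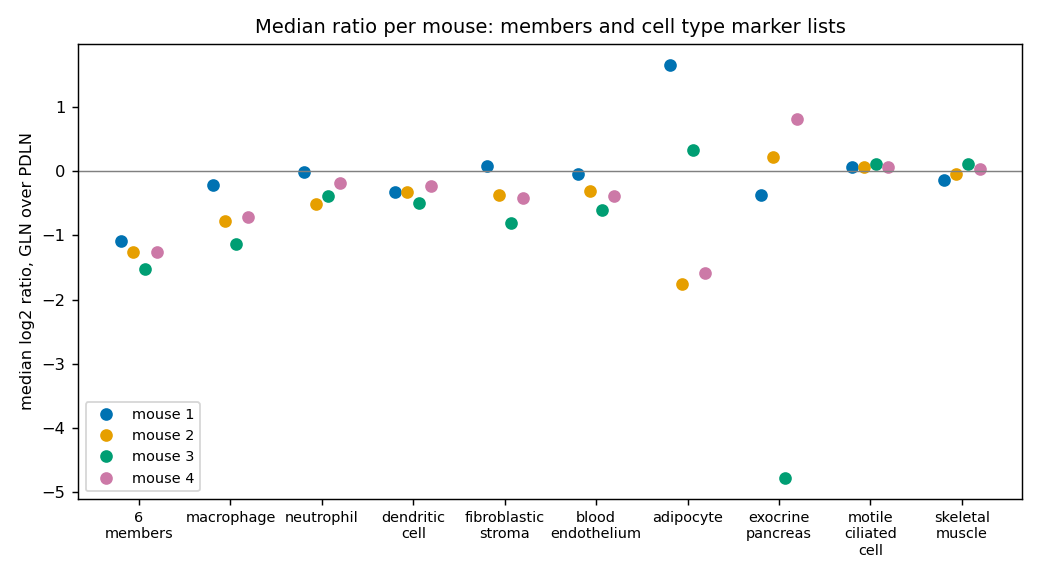
Median log2 ratio of GLN over PDLN (y axis) per mouse for the 6 genes and for 9 lists of cell type markers (x axis), with a coloured point for each of the 4 mice. The 6 genes lie between -1.52 and -1.10 and the macrophage list between -1.14 and -0.22, while the exocrine list falls to -4.78 in mouse 3 and the ciliated and muscle lists stay near 0.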

How the data were processed

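RNA of both nodes of 4 mice was amplified, labelled and hybridised to 1 array per mouse, per the labels' protocols, and the arrays lay on 1 slide scanned together, per the file headers. The deposited scanner files give mean and background intensity for 45018 spots, made with Agilent Feature Extraction 10.2.1.3, per the file headers. They also hold the software's processed intensity, and further flag columns of other kinds marking spots well above background, saturated or outlying, per the file headers. The log10 ratio column of the deposited scanner files was not used. A series table deposited by the authors gives log2 values per probe, and these matched log2 ratios of Cy5 to Cy3 computed from the processed intensities, with a largest difference of 5.1e-05. This settled their scale and direction, and the column medians were -0.15, -0.06, -0.03 and -0.03.

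Background was corrected by normexp (offset 50) and dye bias by loess within arrays, in limma 3.58.1 and R 4.3.3 (files read by data.table, version 1.17.8). Outlier-flagged and control spots were left out, and spots of the same probe were averaged. A probe was kept if 3 of 4 arrays had it well above background in a given channel, and 27613 of 41174 probes passed. Transcript identifiers were matched to RefSeq gene names (GRCm38.p6). A symbol was found for 24844 probes, and 16330 stayed unnamed and were counted as features of their own. The brightest kept probe stood for a gene. Levels per channel are after Aquantile normalization. The log2 ratio pairs both nodes of a mouse, and means were tested against 0 with lmFit and eBayes, Benjamini-Hochberg adjusted over 21329 features at 0.05. Promoter windows were read with Python 3.11.15 and pandas 2.3.3. The steps were tested on simulated data. Simulated log2 sizes of 0.5, 1 and 2 gave median fitted sizes of 0.40, 0.78 and 1.63. Of these features 43.3%, 88.1% and 100% were called, and 0.27% of those with a size of 0. A gene that did not pass may therefore still differ between the nodes.

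The 6 genes and all lists were chosen with earlier results of these data known. Named genes are all members with every probe, the 3 features nearest to each in Euclidean distance, up to 3 called genes per related list with the largest ratio, the 2 brightest where fewer than 2 were called, paralogs of members, and up to 2 called genes per marker list. Lap3, Pkm, Dynll2, Timd4 and the neighbouring genes fall outside this rule and were named after their values were seen. Some genes that the rule names are not reported here. Alternatives covered background correction, normalization, filter, probe choice, variance model, pairing and each mouse left out.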

Additional observations from a re-analysis of the deposited data

Results flagged for a closer look

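Of the 24 groups of 4 values that the 8 probes give (ratio, GLN level and PDLN level), 5 had a mouse whose gap to its nearest neighbour took up more of the whole range than the 95% critical value of Dixon's test for 4 samples allows. Chance flags about 1 group in 20. The Dnah2 log2 ratio of mouse 4 was -1.38, apart from -2.24 to -2.16 in the other mice. The ratio of the dim further Dnah2 probe was 0.22 in mouse 2, against 0.06 to 0.08. The GLN level of the further Fndc5 probe was 8.32 in mouse 4, against 8.55 to 8.59, and the PDLN level of the first Fndc5 probe was 9.83 in mouse 4, against 10.19 to 10.26. The PDLN level of Wfdc17 was 11.76 in mouse 1, against 10.99 to 11.10.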

How the results depend on the processing

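The ratio of each of the 6 genes was below 0 under every alternative run. The scanner software's processed signals and the series table gave -2.61 for Dnah2, -1.23 for Fndc5 and -1.63 for Dpep1, and the mean of probes gave -1.02 for Fndc5. Median centring, which moved the median of all features to 0.32, gave -0.66 for Fndc5, -0.90 for Dpep1, -0.88 for Hk3, -0.85 for Wfdc17, -1.05 for Inmt and -1.65 for Dnah2. Relative to that median they were -0.98, -1.22, -1.20, -1.17, -1.37 and -1.98. Of all features, 585 were lower with the processed signals and 586 with the series table values. Median centring called 2075 lower and 12822 higher, and scaling the arrays called 1073 higher. With each mouse left out in turn, 0 to 1316 features were lower and 0 to 829 higher. Without mouse 2, limma called 0 in either direction, while 4401 had an unadjusted p under 0.05. Of the relatives, 19 were lower with scaled arrays and 7 with the processed signals or the series table, and 48 were higher with median centring. Without the filter, with the series table or with the processed signals 2 were higher, and leaving out a mouse gave 0 to 2 higher and 0 to 15 lower. Plvap, an endothelial marker, was at 0.054 under median centring. Other genes that turned were at 0.15 (Alox5ap), 0.071 (Anpep), 0.54 (Dynlt1b), 0.028 (Fndc7), 0.12 (Itgb5), 0.34 (Lap3), 0.18 (Hk1), 0.44 (Slpi), 0.66 (Mat2a), 0.14 (Pfkfb3) and 0.19 (Pkm), all under median centring. The cause of these changes was not tested. The 2 channels of an array come from the same mouse, and the fit without this pairing (no replicate block) called 569 lower and 335 higher. Dnah2 and Dpep1, the dimmest of the 6 genes, moved most with the processed signals.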
